A study of Mus musculus with 16 samples.

Results

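The genes described here are 10 endothelial genes of leukocyte adhesion and of the cell junction: Selp, Sele, Icam1, Icam2, Vcam1, Pecam1, Cdh5, Cldn5, Esam and Emcn. They were taken by name, each through probe sets annotated with that symbol alone, and where a gene had several, the brightest on average was used. All 10 of the 10 genes were found, on 15 probe sets, among 18193 genes tested. RNA of ventricular myocardium, a tissue of many cell types, had been measured on Affymetrix expression arrays in 4 groups of 4 arrays, 16 arrays in all. The groups were A2AR KO mice given LPS, A2AR KO mice given saline, WT littermates given LPS and WT littermates given saline. A2AR is the adenosine 2A receptor, a receptor for extracellular adenosine, and LPS is lipopolysaccharide of E. coli, a bacterial cell wall component that sets off inflammation. LPS was injected once into the abdominal cavity at 20 mg/kg, and hearts were taken at 24 h. All mice were males of the CD1 background, aged 14 weeks, from 1 breeding series of a sub-colony of the original KO line. KO is the labelled genotype, a germline loss in every cell rather than in endothelium alone. The labels number the replicates and do not say that each array is a separate animal, so p-values measure the spread between these arrays.

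Leukocytes leave the blood in steps. Selectins on activated endothelium let them roll, immunoglobulin-family ligands of integrins stop them, and they then pass between endothelial cells whose contacts are held by VE-cadherin, claudins and PECAM-1. Endotoxin and the cytokines it releases are known to switch on selectin, ICAM-1 and VCAM-1 transcription in endothelium, largely through NF-kB, whereas several junction proteins are present in resting vessels.

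The promoters of the 3 genes with the largest LPS rises, and of Emcn, the 1 that fell, are shown beside the short motifs found in them. RefSeq (GRCm38.p6) gave promoters for 5 of the 10 genes, each from 250 bases before to 50 bases after the annotated start, all on the plus strand. The fifth was Cldn5. Capitals mark matches on either strand to GGANNTTCC (a kappaB variant), TGANTCA (AP-1) or TTCNNNGAA (GAS, the STAT element).
Selp, chr1:164115014-164115313: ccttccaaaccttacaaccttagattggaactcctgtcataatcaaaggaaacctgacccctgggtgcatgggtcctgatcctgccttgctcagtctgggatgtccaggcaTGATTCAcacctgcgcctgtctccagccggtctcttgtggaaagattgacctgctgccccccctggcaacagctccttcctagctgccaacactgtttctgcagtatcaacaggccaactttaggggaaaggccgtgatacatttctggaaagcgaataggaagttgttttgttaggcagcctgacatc
Sele, chr1:164047984-164048283: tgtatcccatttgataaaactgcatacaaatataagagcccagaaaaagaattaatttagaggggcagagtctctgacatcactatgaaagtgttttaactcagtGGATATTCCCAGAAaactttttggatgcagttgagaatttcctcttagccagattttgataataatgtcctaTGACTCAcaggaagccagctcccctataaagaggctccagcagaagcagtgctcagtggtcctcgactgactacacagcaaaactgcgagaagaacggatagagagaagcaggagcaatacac
Icam1, chr9:21015690-21015989: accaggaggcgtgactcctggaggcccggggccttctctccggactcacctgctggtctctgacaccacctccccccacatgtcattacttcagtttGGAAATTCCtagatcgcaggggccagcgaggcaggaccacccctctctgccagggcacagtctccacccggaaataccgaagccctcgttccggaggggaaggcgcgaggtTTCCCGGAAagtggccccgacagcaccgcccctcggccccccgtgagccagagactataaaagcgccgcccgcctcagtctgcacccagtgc
Emcn, chr3:137340828-137341127: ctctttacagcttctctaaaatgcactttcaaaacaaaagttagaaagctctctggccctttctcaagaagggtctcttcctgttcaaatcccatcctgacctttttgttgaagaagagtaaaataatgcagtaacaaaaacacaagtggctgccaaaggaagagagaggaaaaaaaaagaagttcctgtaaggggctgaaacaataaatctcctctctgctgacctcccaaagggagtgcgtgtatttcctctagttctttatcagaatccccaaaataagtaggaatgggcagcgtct
Sele and Icam1 held the kappaB variant, as GGATATTCC at 145 to 137 bases before the start in Sele and as GGAAATTCC at 153 to 145 bases before it in Icam1. In Sele that match overlapped a GAS match at 140 to 132 bases before the start, so the capitals run on, and an AP-1 match lay at 73 to 67 bases before it. Selp held an AP-1 match at 139 to 133 bases before the start. Icam1 held a GAS match at 42 to 34 bases before its start. Emcn and Cldn5 held none of these motifs. The ETS core AGGAAG stood at 2 places in both Emcn and Selp, 1 on each strand, and at 1 place in Sele. TATAAA stood at 49 to 44 bases before the Sele start and at 14 to 19 bases after the annotated Icam1 start. The share of all 32851 promoters in the table that held each motif was 4.26% for GGANNTTCC, 7.81% for TGANTCA, 8.3% for TTCNNNGAA, 13.6% for TATAAA and 35.4% for AGGAAG. The NF-kB consensus matched none of the 5 promoters and 8.46% of all, and GGANNTTCC, which matches fewer promoters, was searched only after that.

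Values are log2 RMA summaries, on which 1 unit is a 2-fold difference, and a gene was called where limma's adjusted p over all 18193 genes was under 0.05. Array medians ran from 4.62 to 4.67, and no 2 arrays held identical values. KO LPS array 2 differed from the mean of its group mates by 0.43 and WT LPS array 4 by 0.50 (root mean square over genes), so these stood apart from the other 14, at 0.17 to 0.33. The receptor's own transcript was not analysed here, so genotype rests on the labels. All 18 endothelial markers outside the 10 genes had group means above 4.64, the median of all values, and their summed level, as the mean over the list, was 8.26 to 8.41 in KO LPS, 8.32 to 8.79 in KO saline, 7.99 to 8.77 in WT LPS and 8.34 to 8.72 in WT saline arrays. In bulk tissue, fewer cells of a type and less RNA per cell cannot be told apart.

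LPS raised the selectins, Icam1 and Esam and lowered Emcn in both genotypes, and it raised Vcam1 in WT hearts. By limma, the Emcn call in WT hearts was close to the threshold (adjusted p = 0.0355). Vcam1 in KO hearts narrowly missed it (adjusted p = 0.0678). Selp was 17.0-fold higher after LPS in KO hearts and 14.2-fold higher in WT hearts, Icam1 9.64-fold in KO and 9.21-fold in WT hearts, and Sele 3.27-fold in KO and 3.07-fold in WT hearts, on the RMA scale. The saline levels of Selp and Sele were not shown to be above background, so their folds are set against levels that may not be measured. Pecam1, Icam2, Cdh5 and Cldn5 were not called in either genotype. None of the 10 was called between KO and WT, after LPS or after saline, at the precision of 4 arrays a group. In KO hearts 4 of the 10 were called higher and 1 lower, against 11.4% of all genes called higher and 14.7% called lower. In WT hearts 5 of the 10 were called higher and 1 lower, against 9.28% of all genes called higher and 11.6% called lower. The 10 genes were chosen with earlier results of these data known, so these counts are no independent test of them. The median log2 change over the 10 genes was 0.68 in KO and 0.44 in WT hearts, against -0.02 in KO and -0.0035 in WT hearts over all genes.

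**Figure D1:**
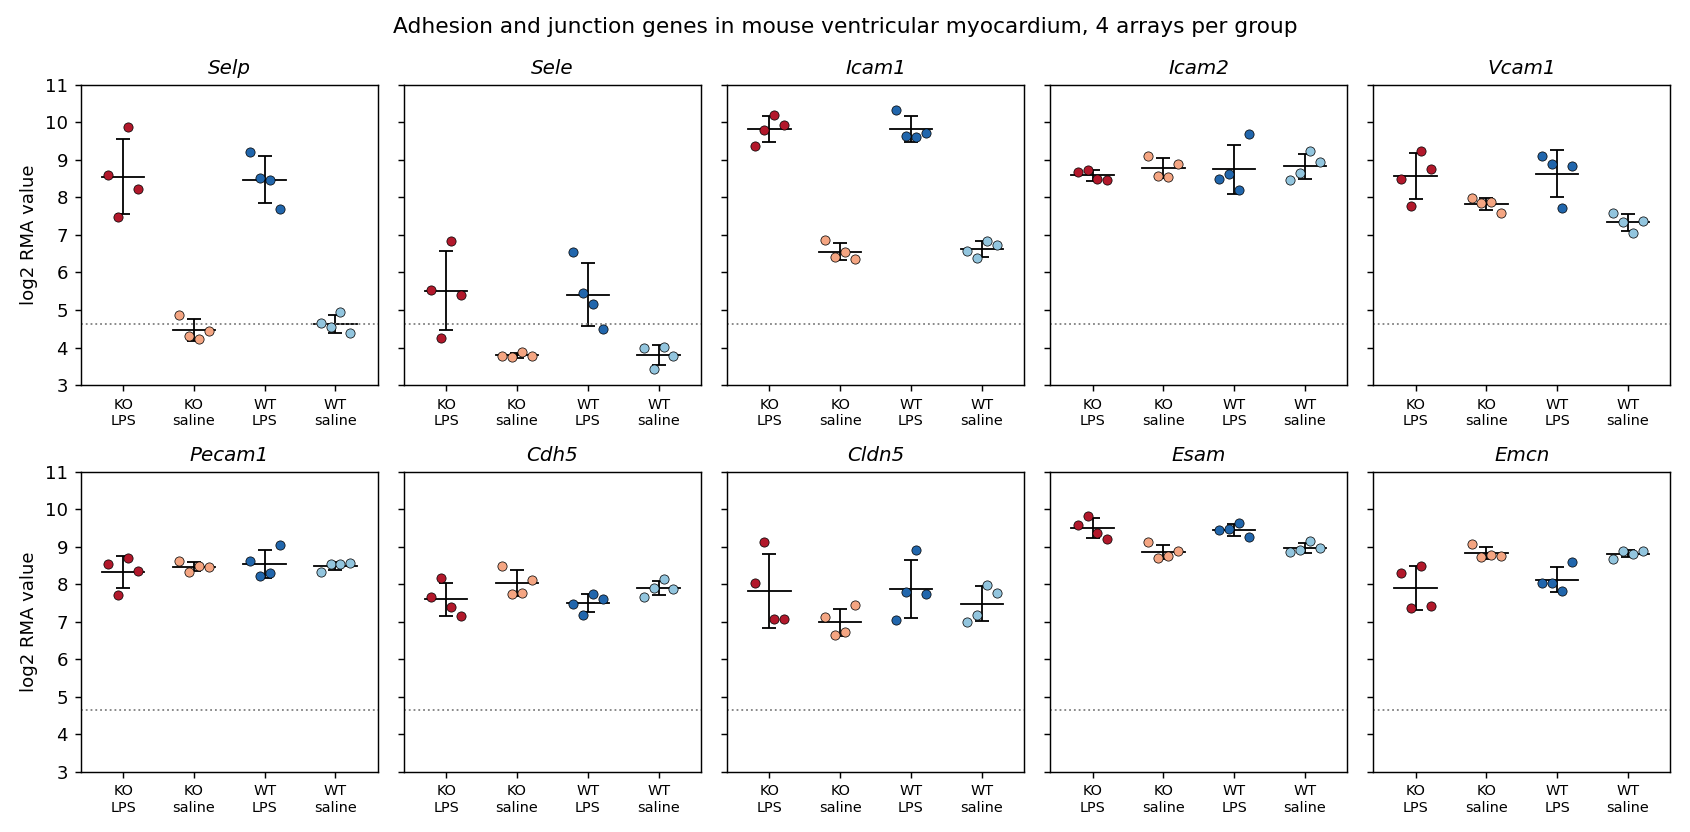
Log2 RMA value (vertical axis) of each of the 10 genes in each array, by group on the horizontal axis; points are single arrays in array order, the long black line is the group mean, the bars are 1 SD (n = 4), and the dotted line at 4.64 is the median of all values. Selp and Icam1 show a wide gap between LPS and saline arrays in both genotypes, while Icam2 and Pecam1 arrays overlap.

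Selp encodes P-selectin, which is stored in endothelial Weibel-Palade bodies and in platelet granules and catches rolling leukocytes through PSGL-1. It read 8.60, 7.49, 9.89 and 8.23 in the KO LPS arrays, against 4.88, 4.30, 4.24 and 4.43 in the KO saline arrays. It read 9.21, 8.51, 8.47 and 7.68 in the WT LPS arrays, against 4.65, 4.55, 4.96 and 4.39 in the WT saline arrays. Every LPS array stood far above every saline array, and arrays differed more from each other after LPS (SD 1.00 in KO and 0.63 in WT) than after saline (SD 0.29 in KO and 0.24 in WT). The log2 change was 4.09 ± 0.38 in KO hearts (SE, adjusted p = 7.71e-07) and 3.83 ± 0.38 in WT hearts (adjusted p = 1.91e-06). The other 2 Selp probe sets also rose, by 2.89 and 2.82 in KO and by 2.08 and 2.63 in WT hearts. Saline levels sat near the median of all values, and an array without a detection call cannot tell a low level from none.

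Platelets hold P-selectin too, so their markers are given beside Selp. Of 10 platelet markers, 1 was higher and 1 lower in KO hearts, and 1 was higher and 0 lower in WT hearts. Of all genes, 11.4% were called higher and 14.7% lower in KO hearts, and 9.28% higher and 11.6% lower in WT hearts. Group means lay below 4.64 for 5 of the 10 in KO LPS, KO saline and WT LPS hearts, and for 6 in WT saline hearts. Changes of such dim markers could be missed. Itgb3, the platelet integrin beta 3 that endothelium and macrophages also express, changed by 2.93 ± 0.39 in KO and 2.01 ± 0.39 in WT hearts. Its saline means, 4.09 in KO and 4.17 in WT hearts, lay below 4.64, the median of all values. Pf4, a platelet chemokine, changed by 0.17 in KO and 0.19 in WT hearts and was not called. Ppbp, another platelet chemokine, fell by 1.04 in KO hearts, from a mean of 5.45 after saline to 4.41 after LPS. In WT hearts its means were 4.39 after saline and 3.96 after LPS, a change that was not called. KO saline arrays thus read 1.06 above WT saline arrays, which was not called either (adjusted p = 0.583). The list mean ran from 4.96 to 5.47 in KO LPS, 4.99 to 5.14 in KO saline, 4.94 to 5.33 in WT LPS and 4.81 to 5.04 in WT saline arrays, and the part of platelets in the Selp change was not tested.

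Sele encodes E-selectin, a selectin made by cytokine-activated endothelium. It read 5.54, 4.25, 6.83 and 5.41 in the KO LPS arrays, against 3.78, 3.74, 3.89 and 3.79 in the KO saline arrays. It read 6.54, 5.46, 5.15 and 4.50 in the WT LPS arrays, against 3.98, 3.42, 4.00 and 3.77 in the WT saline arrays. All saline arrays lay below 4.64, the median of all values, and the groups did not overlap in either genotype, although 1 KO LPS array and 1 WT LPS array also lay below that median. Sele changed by 1.71 ± 0.42 in KO hearts (adjusted p = 0.00589) and by 1.62 ± 0.42 in WT hearts (adjusted p = 0.0102).

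The selectins ranked the LPS arrays in the same order within each genotype, from array 3 through 1 and 4 to 2 in KO hearts, and from array 1 through 2 and 3 to 4 in WT hearts. Over the 8 LPS arrays Selp and Sele correlated with Pearson's r = 0.976 (exact permutation p = 0.000298, adjusted over 45 pairs of the 10 genes 0.0134) and Spearman's rho = 0.976 (exact permutation p = 0.000397, adjusted 0.0179). Without the 2 arrays farthest from the Selp median, r was 0.955, and it was 0.987 within KO and 0.975 within WT arrays. The 2 arrays that stood apart over all genes were the lowest in both selectins, and r without them was 0.946. It was the only pair of the 45 with an adjusted p of r under 0.05, while 10 pairs had an unadjusted p under 0.05.

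**Figure D2:**
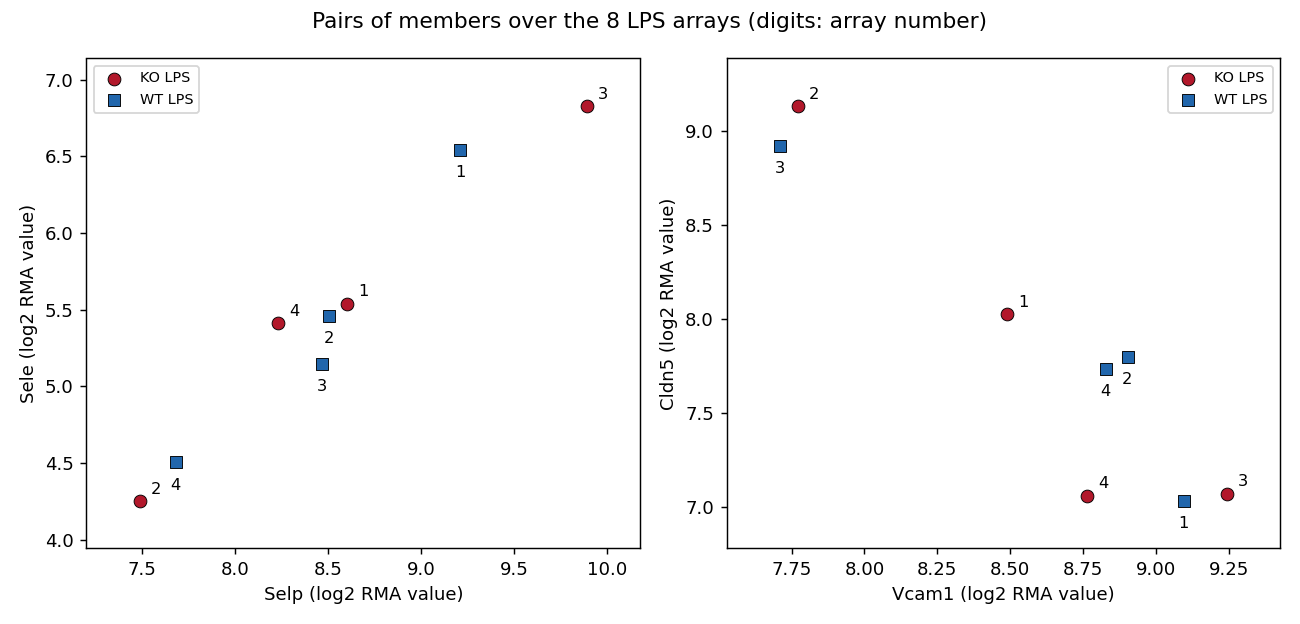
Log2 RMA values of Selp against Sele (left) and of Vcam1 against Cldn5 (right) in the 8 LPS arrays; circles are KO LPS and squares WT LPS arrays, and digits give the array number. Selp and Sele rise together (r = 0.976), while arrays with less Vcam1 have more Cldn5 (r = -0.939).

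Icam1 encodes the ligand of the leukocyte integrins LFA-1 and Mac-1 and is also made by leukocytes and cardiomyocytes under inflammation. It read 9.37, 9.79, 10.19 and 9.92 in the KO LPS arrays, against 6.86, 6.41, 6.56 and 6.36 in the KO saline arrays. It read 10.33, 9.65, 9.61 and 9.72 in the WT LPS arrays, against 6.57, 6.37, 6.84 and 6.73 in the WT saline arrays. The groups did not overlap, and LPS arrays varied less than for the selectins (SD 0.34 in KO and 0.34 in WT). The change was 3.27 ± 0.19 in KO hearts (adjusted p = 2.44e-09) and 3.20 ± 0.19 in WT hearts (adjusted p = 3.08e-09).

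Vcam1 encodes the ligand of the integrin VLA-4 on monocytes and lymphocytes. It read 8.49, 7.77, 9.24 and 8.77 in the KO LPS arrays, against 7.98, 7.84, 7.89 and 7.58 in the KO saline arrays. It read 9.10, 8.90, 7.71 and 8.83 in the WT LPS arrays, against 7.60, 7.34, 7.06 and 7.36 in the WT saline arrays. In WT hearts the arrays did not overlap, whereas KO LPS array 2 lay within the KO saline arrays. Vcam1 rose by 1.30 ± 0.29 in WT hearts (adjusted p = 0.00342). In KO hearts its change was 0.74 ± 0.29 (95% interval 0.14 to 1.35) and missed the threshold (adjusted p = 0.0678). Without KO LPS array 2 the KO change was 1.01 (adjusted p = 0.0106), and it was also called without WT LPS array 3 (0.74, adjusted p = 0.0221), which changes only the shared spread. A call in WT and none in KO hearts does not by itself show a difference between them. The LPS change in KO minus that in WT was -0.55 ± 0.41 (95% interval -1.41 to 0.30, adjusted p = 0.959) and was not called. Of the other Vcam1 probe sets, 1 was called in both genotypes (0.65 in KO and 1.27 in WT hearts) and 1 in WT hearts only (0.46 in KO with an adjusted p of 0.253, and 0.91 in WT hearts). Their KO minus WT differences of the LPS change were -0.63 ± 0.31 and -0.45 ± 0.38, neither called (adjusted p = 0.953 for each).

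Icam2 encodes an LFA-1 ligand of resting endothelium and platelets. It read 8.67, 8.74, 8.48 and 8.46 in the KO LPS arrays, against 9.11, 8.57, 8.55 and 8.88 in the KO saline arrays. It read 8.49, 8.61, 8.20 and 9.68 in the WT LPS arrays, against 8.48, 8.66, 9.24 and 8.95 in the WT saline arrays. The groups overlapped in both genotypes, and WT LPS array 4 was the highest of the 16. The change was -0.19 ± 0.25 in KO hearts (95% interval -0.71 to 0.34) and -0.08 ± 0.25 in WT hearts (95% interval -0.61 to 0.44). Without WT LPS array 4 the WT change was -0.40 (adjusted p = 0.113).

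Some neutrophil markers were called higher after LPS, as Icam1 was, while macrophage markers went both ways. Of 11 neutrophil markers, 6 rose and 0 fell in KO hearts and 5 rose and 0 fell in WT hearts; S100a8, a calprotectin subunit of neutrophils and monocytes, changed by 5.57 ± 0.17 in KO and 4.84 ± 0.17 in WT hearts. The neutrophil list mean was 5.58 to 5.85 in KO LPS, 4.00 to 4.10 in KO saline, 5.17 to 5.68 in WT LPS and 3.97 to 4.11 in WT saline arrays. All 11 had group means below 4.64 in saline hearts of both genotypes, and after LPS 4 did in KO and 6 in WT hearts. The markers not called were 5 in KO and 6 in WT hearts. Of 11 macrophage markers, 4 rose and 3 fell in KO hearts and 4 rose and 2 fell in WT hearts, with a list mean of 6.59 to 7.40 in KO LPS, 6.73 to 6.84 in KO saline, 6.89 to 8.06 in WT LPS and 6.77 to 6.90 in WT saline arrays. The part of leukocyte RNA in the Icam1 and Vcam1 changes was not tested.

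**Figure D3:**
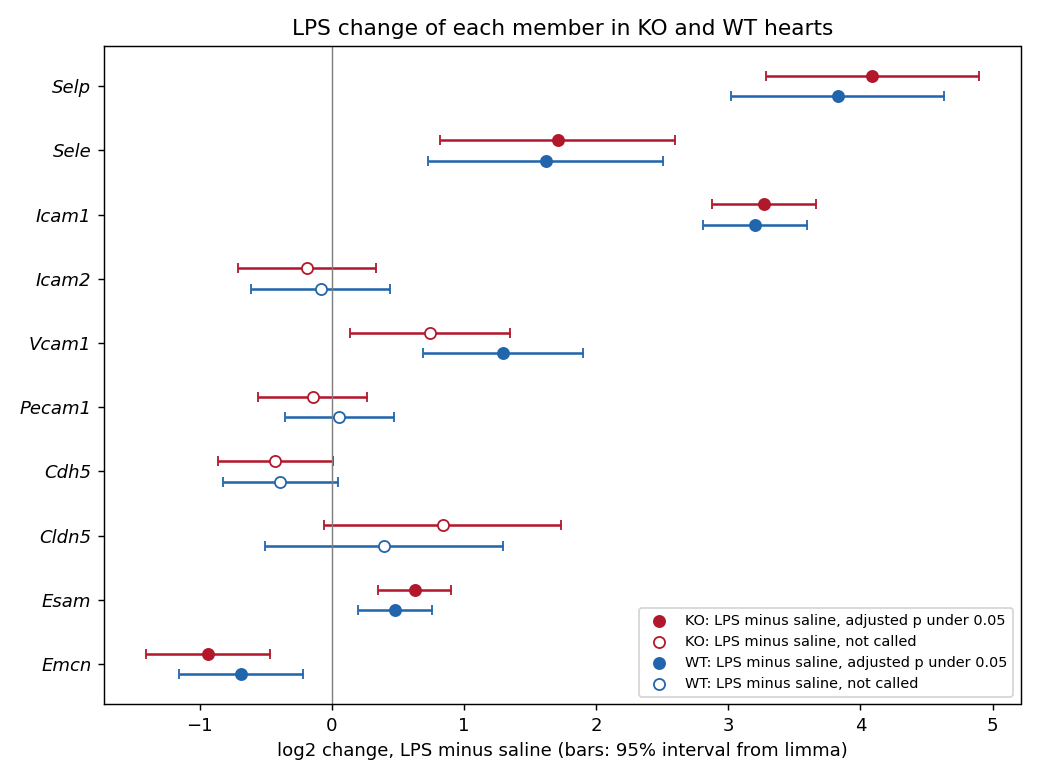
Log2 change, LPS minus saline (horizontal axis), of each of the 10 genes, KO above WT; points are limma estimates, bars 95% intervals, and filled points have an adjusted p under 0.05. Selp (4.09 in KO and 3.83 in WT) and Icam1 (3.27 in KO and 3.20 in WT) lie farthest right, Emcn lies left of 0, and the KO and WT intervals of every gene overlap.

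Among genes of the endothelial contact, Esam rose and the others named here were not called. Esam encodes an immunoglobulin-family protein of endothelial and platelet junctions. It read 9.57, 9.82, 9.36 and 9.22 in the KO LPS arrays, against 9.12, 8.70, 8.76 and 8.88 in the KO saline arrays. It read 9.45, 9.46, 9.63 and 9.26 in the WT LPS arrays, against 8.86, 8.92, 9.14 and 8.95 in the WT saline arrays. The groups did not overlap in either genotype. The change was 0.63 ± 0.13 in KO hearts (1.54-fold, adjusted p = 0.00198) and 0.48 ± 0.13 in WT hearts (1.39-fold, adjusted p = 0.0149). The WT call was lost without WT LPS array 3 (0.42, adjusted p = 0.0538).

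Pecam1 encodes PECAM-1 (CD31), a contact protein that leukocytes and platelets also carry. It read 8.55, 7.71, 8.71 and 8.34 in the KO LPS arrays, against 8.62, 8.31, 8.48 and 8.46 in the KO saline arrays. It read 8.61, 8.21, 8.30 and 9.05 in the WT LPS arrays, against 8.32, 8.54, 8.53 and 8.56 in the WT saline arrays. The groups overlapped, and the lowest and the highest of the 16 arrays were KO LPS array 2 and WT LPS array 4, those that stood apart over all genes. The change was -0.14 ± 0.20 in KO hearts (95% interval -0.56 to 0.27) and 0.06 ± 0.20 in WT hearts (95% interval -0.36 to 0.47).

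Cdh5 encodes VE-cadherin, the adhesion protein of the endothelial adherens junction. It read 7.67, 8.18, 7.40 and 7.16 in the KO LPS arrays, against 8.48, 7.75, 7.76 and 8.12 in the KO saline arrays. It read 7.47, 7.19, 7.75 and 7.61 in the WT LPS arrays, against 7.67, 7.89, 8.14 and 7.87 in the WT saline arrays. KO LPS array 2 stood among the saline arrays and the other 3 below all KO saline arrays, while in WT hearts the groups overlapped through WT LPS array 3. The change was -0.43 ± 0.21 in KO hearts (95% interval -0.86 to 0.01, adjusted p = 0.148) and -0.39 ± 0.21 in WT hearts (95% interval -0.83 to 0.04, adjusted p = 0.215). Without KO LPS array 2 it was -0.62 in KO hearts and was called (adjusted p = 0.0240). A second, dimmer Cdh5 probe set changed by -0.51 ± 0.17 in KO (adjusted p = 0.0430) and -0.08 ± 0.17 in WT hearts (adjusted p = 0.826), so the Cdh5 probe sets disagreed on the KO call. The LPS change of that probe set in KO minus that in WT was -0.43 ± 0.24 (adjusted p = 0.953).

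Cldn5 encodes claudin-5, the main claudin of endothelial tight junctions. It read 8.03, 9.13, 7.07 and 7.06 in the KO LPS arrays, against 7.12, 6.66, 6.71 and 7.44 in the KO saline arrays. It read 7.03, 7.80, 8.92 and 7.74 in the WT LPS arrays, against 6.99, 7.17, 7.97 and 7.78 in the WT saline arrays. Single LPS arrays in each genotype were far above the rest and others lay within the saline range. The change was 0.84 ± 0.42 in KO hearts (95% interval -0.06 to 1.74) and 0.40 ± 0.42 in WT hearts (95% interval -0.50 to 1.29), and neither was called. Without KO LPS array 2 the KO change was 0.40 (adjusted p = 0.497).

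The LPS arrays with the most Cldn5, KO LPS array 2 and WT LPS array 3, were those with the least Vcam1. Over the 8 LPS arrays the pair correlated with r = -0.939 (exact permutation p = 0.00293, adjusted over 45 pairs 0.0658) and rho = -0.762 (exact permutation p = 0.0368, adjusted 0.276), which missed the threshold after adjustment. The r was -0.945 within KO and -0.957 within WT arrays, and -0.703 without the 2 arrays farthest from the Vcam1 median, so much of it rests on them.

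Emcn encodes endomucin, a mucin-like glycoprotein of capillary and venous endothelium that hinders leukocyte attachment. It read 8.30, 7.37, 8.49 and 7.41 in the KO LPS arrays, against 9.07, 8.73, 8.78 and 8.74 in the KO saline arrays. It read 8.04, 8.03, 7.83 and 8.60 in the WT LPS arrays, against 8.68, 8.88, 8.81 and 8.88 in the WT saline arrays. Every LPS array lay below every saline array of its genotype, WT LPS array 4 only narrowly. The change was -0.94 ± 0.22 in KO hearts (1.91-fold lower, adjusted p = 0.00464) and -0.69 ± 0.22 in WT hearts (1.61-fold lower, adjusted p = 0.0355). The WT call was close to the threshold: it was lost without any 1 of WT LPS arrays 1, 2 and 3 or of the 4 WT saline arrays (adjusted p = 0.0523 to 0.112), and without WT LPS array 4 it was -0.85 (adjusted p = 0.00775).

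Arrays did not overlap between LPS and saline for 5 of the 10 genes in KO hearts and 6 of 10 in WT hearts, against 28.5% of all genes in KO and 22.8% in WT hearts. Within the LPS groups single arrays ran high for some of the genes and low for others. KO LPS array 2 was the highest of its group in Icam2, Cdh5, Cldn5 and Esam and the lowest in Selp, Sele, Vcam1, Pecam1 and Emcn. WT LPS array 4 was the highest of its group in Icam2, Pecam1 and Emcn and the lowest in Selp, Sele and Esam. Relative to the mean of the 18 endothelial markers of the same array, Selp changed by 4.26 in KO and 4.02 in WT hearts, and Icam1 by 3.44 in KO and 3.39 in WT hearts. On the same scale Sele changed by 1.88 in KO and 1.81 in WT, Vcam1 by 0.91 in KO and 1.49 in WT, Esam by 0.80 in KO and 0.67 in WT, and Emcn by -0.77 in KO and -0.50 in WT hearts. That scaling raised the median change of all genes by 0.17 in KO and 0.19 in WT hearts. On it Vcam1 was called in KO hearts (adjusted p = 0.0204) and Emcn was not called in WT hearts (adjusted p = 0.110).

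KO and WT hearts were compared directly in 3 ways. After LPS, KO minus WT lay between -0.23 (Emcn, ± 0.22) and 0.10 (Cdh5, ± 0.21), with adjusted p from 0.787 to 0.992, and 0 of the 10 genes was called, against 0.0055% of all genes. For Selp the difference was 0.09 (95% interval -0.72 to 0.89) and for Icam1 it was -0.01 (95% interval -0.41 to 0.38), so the selectin interval still includes differences close to 1 log2 unit. After saline, the widest differences were Cldn5 at -0.49 ± 0.42 and Vcam1 at 0.49 ± 0.29, and 0 of the 10 was called, against 0.0055% of all genes. For Vcam1, KO saline arrays read 7.58 to 7.98 and WT saline arrays 7.06 to 7.60, overlapping by a single array of each. The LPS change in KO minus that in WT ran from -0.55 (Vcam1) to 0.45 (Cldn5, ± 0.60), with adjusted p of 0.959 or more, and 0 of the 10 was called, against 0% of all genes. By limma's unadjusted p under 0.05, 0 of the 10 passed in each of these comparisons. Of all 18193 genes, 1375 passed after LPS, 634 after saline and 813 for the difference of changes. These are small shares of all genes, so 0 of 10 does not set the 10 genes apart. These comparisons share arrays with the LPS comparisons and with each other.

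Among genes that work with these 10, leukocyte partners were measured for 12. In KO hearts 4 rose and 3 fell, and in WT hearts 3 rose and 2 fell, with median changes of -0.000375 in KO and 0.13 in WT hearts. Itgam, the alpha chain of Mac-1, rose by 2.38 ± 0.22 in KO and 2.47 ± 0.22 in WT hearts. Its saline means, 3.55 in KO and 3.46 in WT hearts, lay below 4.64, the median of all values. Itgam is on the macrophage list as well. Itgb2, the beta chain of LFA-1 and Mac-1, rose by 1.23 ± 0.21 in KO and 1.60 ± 0.21 in WT hearts. Cd44, a hyaluronan receptor and E-selectin ligand, rose by 1.47 ± 0.17 in KO and 1.16 ± 0.17 in WT hearts. Itga9, an integrin alpha chain that binds VCAM-1, changed by -0.62 ± 0.14 in KO and -0.78 ± 0.14 in WT hearts. The other called partners, named after their values were seen, were Itgb1 (higher in KO), Glg1 (lower in KO) and Itga4 (lower in both). In each of the 4 groups, 3 of the 12 partners had means below 4.64. Which cells held the RNA of the partners was not tested.

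Of 19 other adhesion and transmigration genes of the vessel wall, 6 rose and 8 fell in KO hearts and 4 rose and 4 fell in WT hearts, with median changes of -0.01 in KO and -0.09 in WT hearts. Ackr1, the Duffy chemokine receptor of venular endothelium, rose by 1.72 ± 0.24 in KO and 2.02 ± 0.24 in WT hearts. Its saline means, 4.39 in KO and 4.57 in WT hearts, lay below 4.64, the median of all values. Pvr, the poliovirus receptor of endothelial contacts, rose by 2.02 ± 0.23 in KO and 1.36 ± 0.23 in WT hearts. Lgals9, which encodes the lectin galectin-9, rose by 1.50 ± 0.19 in KO and 1.65 ± 0.19 in WT hearts. Jam2, a junctional adhesion molecule of endothelium, changed by -1.68 ± 0.18 in KO and -1.35 ± 0.18 in WT hearts.

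Of 25 other junction genes, 2 rose and 10 fell in KO hearts and 2 rose and 7 fell in WT hearts, with median changes of -0.10 in KO and 0.03 in WT hearts. Ptprb, the phosphatase VE-PTP that acts on VE-cadherin, changed by -1.43 ± 0.18 in KO and -1.17 ± 0.18 in WT hearts. Tjp1, the tight junction scaffold ZO-1, changed by -0.71 ± 0.10 in KO and -0.67 ± 0.10 in WT hearts. Afdn, the adherens junction scaffold afadin, changed by -0.58 ± 0.17 in KO and -0.89 ± 0.17 in WT hearts. Rasip1, a Ras-interacting protein that helps tighten endothelial contacts, rose by 0.95 ± 0.23 in KO and 1.01 ± 0.23 in WT hearts. Several of these genes, Tjp1 among them, are also expressed by cardiomyocytes, and which cells lost the RNA was not tested.

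Of 23 regulators of endothelial activation, 10 rose and 5 fell in KO hearts and 10 rose and 4 fell in WT hearts, with median changes of 0.28 in KO and 0.24 in WT hearts. Tnfaip3, the NF-kB feedback inhibitor A20, rose by 3.22 ± 0.35 in KO and 2.96 ± 0.35 in WT hearts. Nfkbia, the inhibitor IkB alpha and itself an NF-kB target, rose by 1.61 ± 0.18 in KO and 1.54 ± 0.18 in WT hearts. Irf1, an interferon-responsive transcription factor, rose by 2.30 ± 0.33 in KO and 1.77 ± 0.33 in WT hearts. Sox7, an endothelial transcription factor, changed by -1.86 ± 0.15 in KO and -1.63 ± 0.15 in WT hearts. None of the genes in these 4 lists was called between KO and WT after LPS, after saline or for the difference of changes, while 0 to 3 of each list passed an unadjusted p under 0.05 in each of those comparisons.

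**Figure D4:**
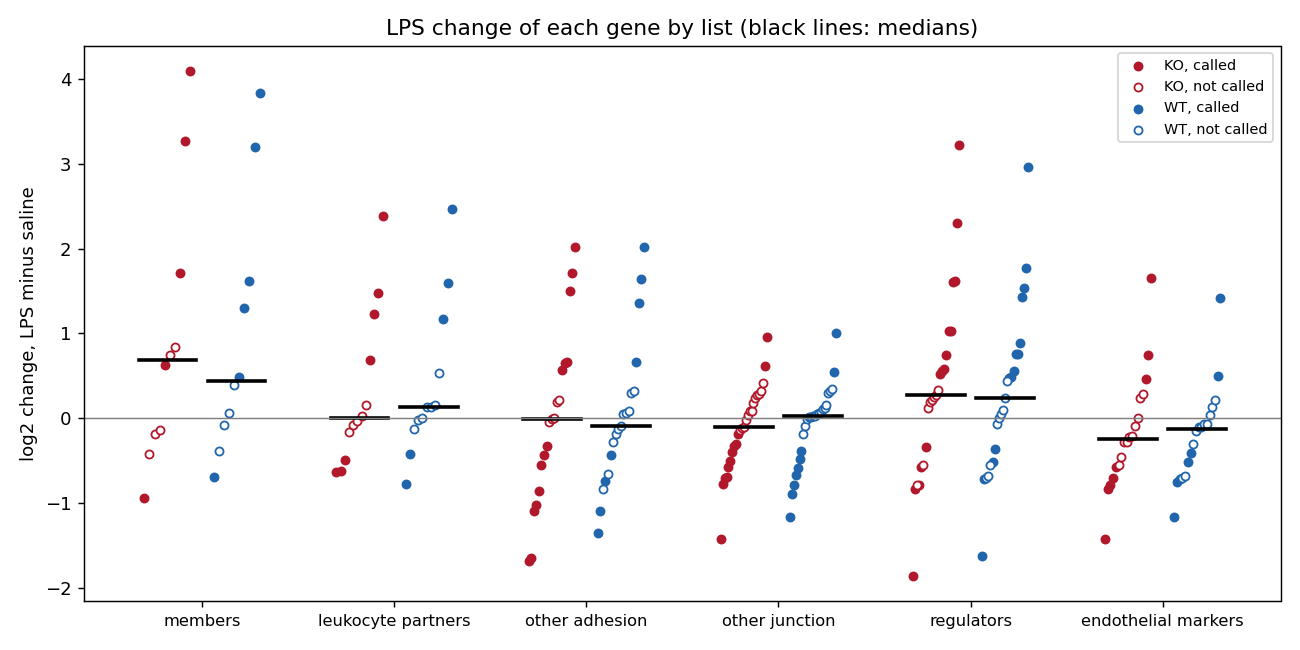
Log2 change, LPS minus saline (vertical axis), of every gene in the 10-gene set, in the 4 lists of related genes and among the endothelial markers; red points are KO and blue WT hearts, filled points were called, and black lines are medians. Among the genes drawn, the set holds the top 2 changes (Selp at 4.09 and Icam1 at 3.27 in KO hearts). Called genes of the set and of every list drawn lie on both sides of 0. The set and the lists were chosen with earlier results of these data known.

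The 18 endothelial markers themselves changed in both directions. In KO hearts 3 rose and 5 fell and in WT hearts 2 rose and 5 fell, with median changes of -0.25 in KO and -0.12 in WT hearts. Ecscr, an endothelial cell surface protein, rose by 1.65 ± 0.18 in KO and 1.42 ± 0.18 in WT hearts. Kdr, which encodes VEGF receptor 2, changed by -0.71 ± 0.24 in KO and -0.75 ± 0.24 in WT hearts. Sox17, a transcription factor of arterial endothelium, changed by -0.78 ± 0.16 in KO and -0.72 ± 0.16 in WT hearts. Ptprb, given above, is on this list as well.

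For each of the 10 genes the 3 genes with the most similar profile over the 16 arrays were found by the root mean square difference of mean-centred log2 values. For Selp, whose own SD over the arrays was 2.05, they were Ccl2 (0.45), Saa1 (0.55) and Plac8 (0.55). For Icam1, with an SD of 1.64, they were Psmb10 (0.32), Csf2rb (0.34) and Psmb8 (0.34). For Sele, with an SD of 1.03, they were Slc45a3 (0.35), Nudt6 (0.36) and Kbtbd11 (0.36). For Emcn, with an SD of 0.51, they were Kcnt2 (0.21), Fn1 (0.21) and Itprid2 (0.22). The nearest genes to Vcam1, with an SD of 0.67, were Tmem176b (0.30), Irak1bp1 (0.30) and Hsd11b1 (0.31). The nearest to Esam, with an SD of 0.32, were Vps37c (0.08), Gnl2 (0.09) and Gprc5a (0.09). For Pecam1, whose SD was 0.27, they were R3hcc1 (0.13), Pold2 (0.14) and Clec14a (0.15), the last also on the endothelial marker list. The nearest to Icam2, with an SD of 0.35, were Nav1 (0.15), Ripor1 (0.17) and Sipa1 (0.17). Those to Cdh5, with an SD of 0.35, were Txnrd3 (0.16), Prag1 (0.16) and Fyn (0.18). Those to Cldn5, with an SD of 0.70, were Sema4c (0.35), Sik1 (0.36) and Xirp1 (0.36). No other gene of the 10 was among the 3 nearest of any, and between Selp and Icam1 the distance was 0.58.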

How the data were processed

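RNA of ventricular myocardium from 4 groups (A2AR KO or WT, LPS or saline), with 4 arrays each and 1 array per sample, was analysed. The authors deposited log2 probe set values made with RMA, per the submitters' processing notes; of RMA, the sources used here give no version or settings. RMA normalizes by quantiles, which assumes like distributions across arrays, and its log2 values compress low levels. It covered 45101 probe sets, and 0 values were missing. Gene symbols came from the platform annotation: 34945 probe sets had 1 symbol, 932 several, 9160 none and 64 were controls. Each of 18193 genes was represented by its brightest probe set on average.

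A model with 4 group means was fitted in limma 3.58.1 (R 4.3.3; all 16 arrays, lmFit, then eBayes with an intensity trend; 12 residual degrees of freedom), and p-values were adjusted by Benjamini-Hochberg over all genes. The fit was also run on simulated data with normal noise of the same spread in every group. That run does not show how calls behave where the spread differs between groups or single arrays stand apart. Correlations used exact two-sided permutation tests over all orderings of the 8 LPS arrays (Python 3.11.15). Ranks and the r of subsets of arrays came from scipy 1.17.1. The members and lists were chosen with earlier results of these data known. All 10 members are named, and of each list up to 4 genes called in both genotypes with the largest mean LPS change, plus the 3 genes nearest in profile to each member. Listed genes without a single-symbol probe set in the table were not analysed here. Promoters are those of RefSeq (GRCm38.p6). The number of arrays limits precision, and arrays give no sequencing depth. Alternatives changed the moderation, array weights, arrays fitted, gene filter, probe set choice, centring, replicate block and arrays left out.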

Additional observations from a re-analysis of the deposited data

Results flagged for a closer look

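Among 40 groups of 4 arrays (10 genes in 4 groups), 3 held an array far from the other 3, by Dixon's ratio of its gap to the group's range at the 95% level. Chance alone gives about 1 in 20 such groups. Icam1 read 10.332 in WT LPS array 1, while the other WT LPS arrays read 9.614 to 9.722. Pecam1 read 8.321 in WT saline array 1, while the other WT saline arrays read 8.53 to 8.558. Emcn read 9.071 in KO saline array 1, while the other KO saline arrays read 8.729 to 8.782. None of the 3 was one of the arrays that stood apart over all genes. The LPS calls of Icam1 in both genotypes and of Emcn in KO hearts were kept when any single array was left out.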

How the results depend on the processing

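Over 27 alternative settings, Selp, Sele and Icam1 in both genotypes, Esam and Emcn in KO hearts and Vcam1 in WT hearts kept their direction and call wherever tested (Sele was not tested under the filter on dim genes). Genes of the 10 called higher ran from 3 to 5 in KO hearts and from 4 to 5 in WT hearts. Genes called lower in KO hearts were 2, in place of 1, with the mean of all probe sets (Cdh5 -0.47, adjusted p = 0.0140) and, added after seeing the data, without both arrays that stood apart (Cdh5 -0.62, adjusted p = 0.0170), and 1 to 2 when single arrays were left out. Genes called lower in WT hearts were 0 with endothelial centring and 0 with the replicate block (Emcn -0.69, adjusted p = 0.0530), and 0 to 1 when single arrays were left out. Vcam1 was called in KO hearts with array weights (0.93, adjusted p = 0.00524), with median centring (0.79, adjusted p = 0.0382) and without both arrays that stood apart (1.01, adjusted p = 0.00705). The causes were not tested. Arrays with the same replicate number were not treated as pairs in the main fit. Of 24 such pairs, 3 correlated above 0.1 in their differences from the group means (range -0.27 to 0.33). Arrays with different numbers were not compared in this way, so these values do not show whether the numbers mark a pairing. Of all genes, 4744 were called after LPS in KO and 3798 in WT hearts. With endothelial centring the counts were 2827 in KO and 2300 in WT hearts. With all probe sets tested separately they were 7611 in KO and 6024 in WT hearts. Without both arrays that stood apart they were 5373 in KO and 5723 in WT hearts. Which genotype had more calls thus depended on the arrays fitted. KO against WT gave 0 to 3 genes after LPS and 0 to 21 after saline. No called value changed sign; 79 uncalled values did, 11 of them LPS changes.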

Other observations

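Markers of other cells of the heart wall changed with LPS beside the 10 endothelial genes. Of 11 markers of smooth muscle cells and pericytes, 8 fell and 0 rose in KO hearts and 8 fell and 0 rose in WT hearts; Tagln, an actin-binding protein of smooth muscle, changed by -1.78 ± 0.19 in KO and -2.09 ± 0.19 in WT hearts. Of 9 fibroblast markers, 4 fell and 0 rose in each genotype; Lum, which encodes the matrix proteoglycan lumican, changed by -2.24 ± 0.27 in KO and -1.78 ± 0.27 in WT hearts. Of 10 cardiomyocyte markers, 4 fell in KO and 5 in WT hearts, and Actc1, cardiac actin, changed by -0.81 ± 0.09 in KO and -0.66 ± 0.09 in WT hearts. Of 6 lymphatic markers, 1 rose and 1 fell in KO hearts and 0 rose and 3 fell in WT hearts; Prox1, the lymphatic transcription factor also found in cardiomyocytes, fell in both (-0.88 ± 0.19 in KO and -0.89 ± 0.19 in WT hearts). Of 10 lymphocyte markers, 1 fell in each genotype, Ms4a1 (CD20 of B cells), and 7 of the 10 had group means below the median of all values in every group.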
